A study of Rattus norvegicus with 10 samples.

Results

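Of 14217 rat genes that the array measured with a symbol of their own, 38 belonged to the mitochondrial carrier family SLC25, and their transcripts were compared between left ventricles of p38 and LacZ hearts. The family was taken as every gene with a symbol starting in Slc25a, except 2 genes that were not analysed here. Where several probe sets (groups of short probes for one transcript) measured a gene, which was so for 11 of the 38, the brightest by mean over all 10 arrays stood for it. The p38 group had 5 arrays from rats given gene transfer of wild-type p38α and of MKK3bE, an always-active variant of an upstream kinase of p38. The LacZ group had 5 arrays from rats given the bacterial β-galactosidase gene instead, so that both groups underwent gene transfer. Left ventricle was taken after 3 days, the rats weighed 250 to 300 g, and 9 of the 10 are labelled as male and Sprague-Dawley. The vector, its promoter and the cells it reached are not given in the sources used here. Whether the arrays stand for separate animals is not stated, and p-values refer to the spread between these samples, which may be technical.

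SLC25 proteins sit almost all in the inner mitochondrial membrane, where each moves a small set of metabolites between cytosol and matrix. They share a fold of repeated pairs of membrane helices and usually exchange one substrate for another. In heart muscle, which renews its ATP mainly by oxidative phosphorylation, the best known members bring in ADP and phosphate, send out ATP, and carry the malate, ketoglutarate, glutamate and aspartate of the malate-aspartate shuttle, which passes reducing equivalents of cytosolic NADH to the respiratory chain. Other members carry citrate, coenzyme A, nucleotides, amino acids or iron.

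Of the 38 genes, 32 were bright enough to be tested and 6 were not, namely Slc25a18, Slc25a27, Slc25a31, Slc25a41, Slc25a48 and Slc25a53. In p38 hearts 6 of the 32 fell, 1 rose and 25 did not pass the test, where 17.8% of all 10596 tested genes passed in one direction or the other. Those that fell were Slc25a23, Slc25a35, Slc25a42, Slc25a22, Slc25a13 and Slc25a11, by 0.32 to 0.69 on the log2 scale, and the one that rose was Slc25a24, by 0.56. Over all tested genes 6.23% fell and 11.6% rose, where 18.75% of the tested carrier genes fell and 3.125% rose. Values are quantile-normalized log2(signal + 16), a log2 fold change is given ± its standard error in the limma model, group means carry the SD (n = 5), and adjusted p refers to limma with Benjamini-Hochberg adjustment over all 18625 tested probe sets, with a threshold of 0.05. The median log2 fold change was -0.11 over the 32 carrier genes and 0.00035 over all tested genes, and 71.88% of the carrier genes against 49.97% of all tested genes had a negative value. Tissue was measured in bulk, where fewer cells of a type and less RNA per cell cannot be told apart.

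These counts depended on scaling and on single arrays. When the deposited signals were used with no between-array normalization, none of the 32 passed as lower by limma (2 at an unadjusted p under 0.05) and Slc25a24 passed as higher, while 0.245% of all tested genes fell and the median log2 fold change of all tested genes shifted to 0.15. With 1 array left out the count of falls was 2 without p38 4, 2 without p38 5, 3 without LacZ 1, 2 without LacZ 2 and 1 without LacZ 3, where the share of all genes that fell was also lower, at 2.31%, 3.15%, 2.95%, 3.04% and 2.34%.

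**Figure D1:**
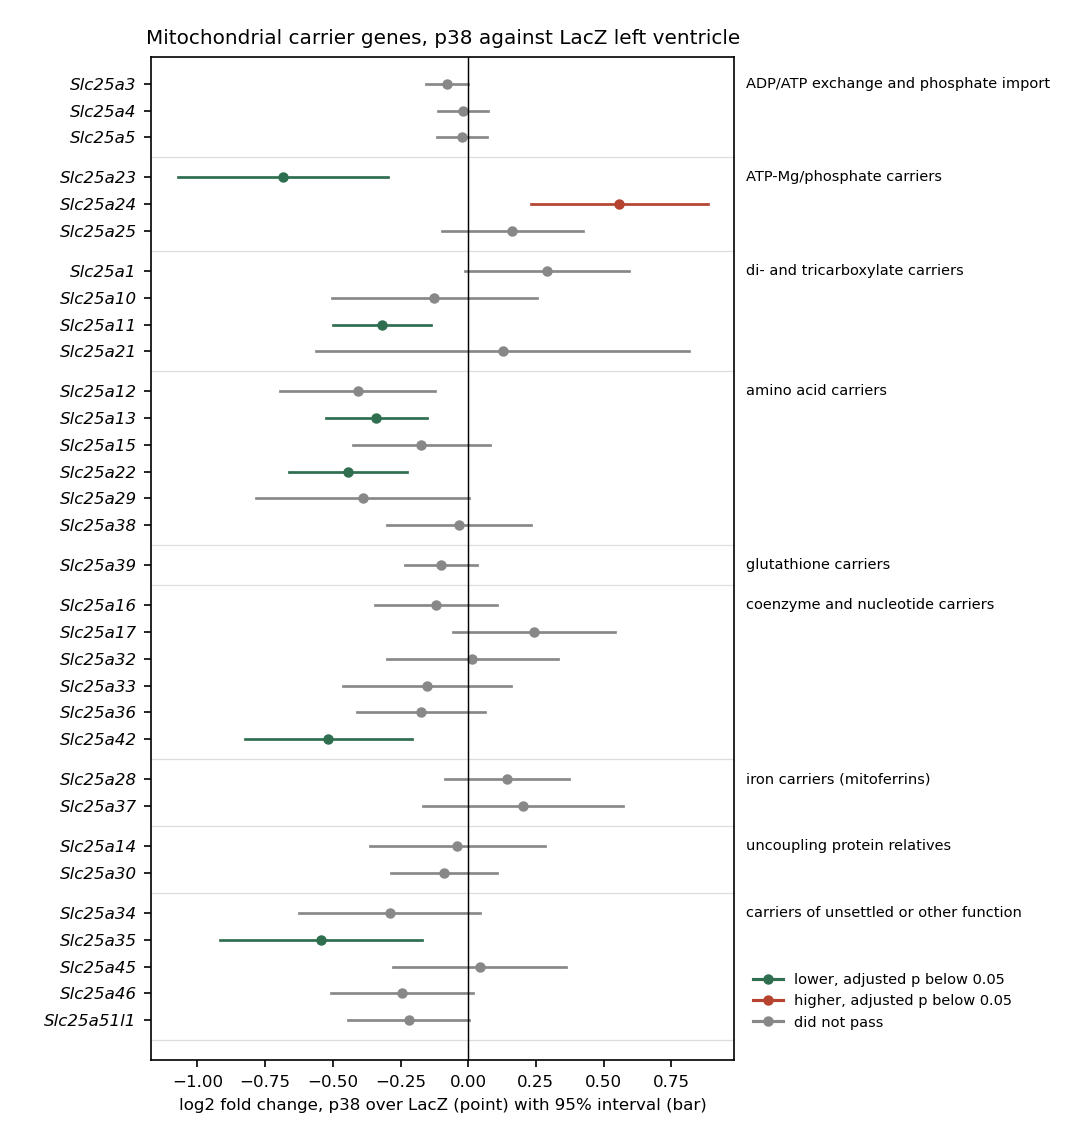
Log2 fold change of p38 over LacZ (x axis) for each of the 32 tested carrier genes, grouped by role, with points for the estimate and bars for its 95% interval. The 6 genes that passed as lower lie left of 0 in 5 of the role groups, and Slc25a24, the 1 that passed as higher, lies at 0.56.

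Promoters of 4 of the 7 genes that passed are shown as examples, from RefSeq on build GRCr8: Slc25a23 and Slc25a24, related carriers of the same substrates of which one fell and one rose, Slc25a13, which fell in both of its probe sets, and Slc25a42, which fell with 32 CpG dinucleotides in its window, the most among the 6. Each window runs from 250 bases before to 50 bases after the annotated gene start, and capitals mark the GC box, GGGCGG on either strand, the motif of Sp-family factors. The windows are chr9:1985316-1985615 on the minus strand, chr2:199449175-199449474 on the plus strand, chr4:35328311-35328610 on the minus strand and chr16:19247724-19248023 on the plus strand, in this order.
Slc25a23: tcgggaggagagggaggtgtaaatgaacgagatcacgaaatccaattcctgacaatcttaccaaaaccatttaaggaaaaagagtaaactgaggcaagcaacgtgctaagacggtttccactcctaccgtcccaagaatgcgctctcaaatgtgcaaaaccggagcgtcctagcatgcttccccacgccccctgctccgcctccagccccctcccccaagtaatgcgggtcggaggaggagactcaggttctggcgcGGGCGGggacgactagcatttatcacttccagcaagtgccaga
Slc25a24: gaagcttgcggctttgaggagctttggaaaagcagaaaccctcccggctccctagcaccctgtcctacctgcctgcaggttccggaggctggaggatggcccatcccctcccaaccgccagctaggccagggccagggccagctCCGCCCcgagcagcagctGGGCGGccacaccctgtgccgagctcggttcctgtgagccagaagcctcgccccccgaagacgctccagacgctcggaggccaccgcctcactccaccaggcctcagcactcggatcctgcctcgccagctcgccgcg
Slc25a13: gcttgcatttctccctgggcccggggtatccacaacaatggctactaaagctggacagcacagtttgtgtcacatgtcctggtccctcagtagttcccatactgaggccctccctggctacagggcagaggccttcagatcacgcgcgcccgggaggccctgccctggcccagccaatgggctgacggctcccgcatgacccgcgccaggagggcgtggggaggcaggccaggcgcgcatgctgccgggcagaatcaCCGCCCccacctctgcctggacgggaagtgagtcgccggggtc
Slc25a42: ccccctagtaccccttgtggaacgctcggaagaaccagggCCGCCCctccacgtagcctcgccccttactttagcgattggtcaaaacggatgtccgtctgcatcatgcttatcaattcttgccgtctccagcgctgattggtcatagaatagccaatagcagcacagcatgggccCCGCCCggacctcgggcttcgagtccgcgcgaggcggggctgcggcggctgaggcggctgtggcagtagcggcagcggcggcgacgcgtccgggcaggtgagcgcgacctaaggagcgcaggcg
RefSeq windows of this length were found for 32 of the 38 carrier genes, and 24 of these 32 held the GC box, as did 5 of the 6 genes that fell and 33.1% of all 33469 promoters. The carriers were counted by gene and all promoters by window, with no matching for GC content. Slc25a35 was the gene that fell without one. Median GC content was 60.3% in the carrier promoters and 51.7% in all promoters. A binding half-site of the oestrogen-related receptors (TCAAGGTCA) and the palindromic core site of NRF1, factors known for mitochondrial genes, were looked for on both strands, and neither stood in any of these carrier windows, against 0.433% and 0.852% of all promoters. Neither motif contains the GC box, which was added to the search after values had been seen.

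The carriers of ATP synthesis itself came first by role: the phosphate carrier Slc25a3 and the adenine nucleotide translocases Slc25a4, the form of heart and muscle, and Slc25a5. None of these 3 passed the test (lowest unadjusted p = 0.0503, for Slc25a3), and their intervals were the narrowest ones in the family. Their probe sets were at percentiles 99.2 to 99.9 of mean signal on the array, and compression of differences or saturation at this brightness was not tested. The estimates moved with the scaling: with median centring they were -0.24 for Slc25a3, -0.19 for Slc25a4 and -0.02 for Slc25a5, and on the deposited signals -0.12, -0.07 and 0.10 in the same order, with none passing. Slc25a4 measured 13.61, 13.62, 13.59, 13.54 and 13.50 in p38 1 to 5, against 13.66, 13.61, 13.61, 13.55 and 13.53 in LacZ 1 to 5. The groups overlapped, with a log2 fold change of -0.02 ± 0.04 and a 95% interval of -0.11 to 0.07 (adjusted p = 0.786). Slc25a5 measured 12.66, 12.75, 12.69, 12.74 and 12.74 in p38 1 to 5, against 12.73, 12.77, 12.74, 12.73 and 12.72 in LacZ 1 to 5. Its groups overlapped too, with a log2 fold change of -0.02 ± 0.04 and an interval of -0.11 to 0.07 (adjusted p = 0.739). Slc25a3 measured 13.63, 13.58, 13.61, 13.61 and 13.54 in p38 1 to 5, against 13.68, 13.68, 13.68, 13.66 and 13.66 in LacZ 1 to 5. Here all 5 p38 arrays lay below all 5 LacZ arrays, at a difference of -0.08 ± 0.04 whose interval ran from -0.16 to 0.00 (adjusted p = 0.152). The testis form of the translocase, Slc25a31, was too dim to be tested. Among partners of this exchange, the mitochondrial creatine kinase Ckmt2 differed by 0.03 ± 0.05 on the log2 scale (adjusted p = 0.644), and of 3 tested creatine kinase genes none passed by limma (1 at an unadjusted p under 0.05, Ckm), while 1 passed as lower with cyclic loess, array weights, fluidics status as a block or without p38 1.

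**Figure D2:**
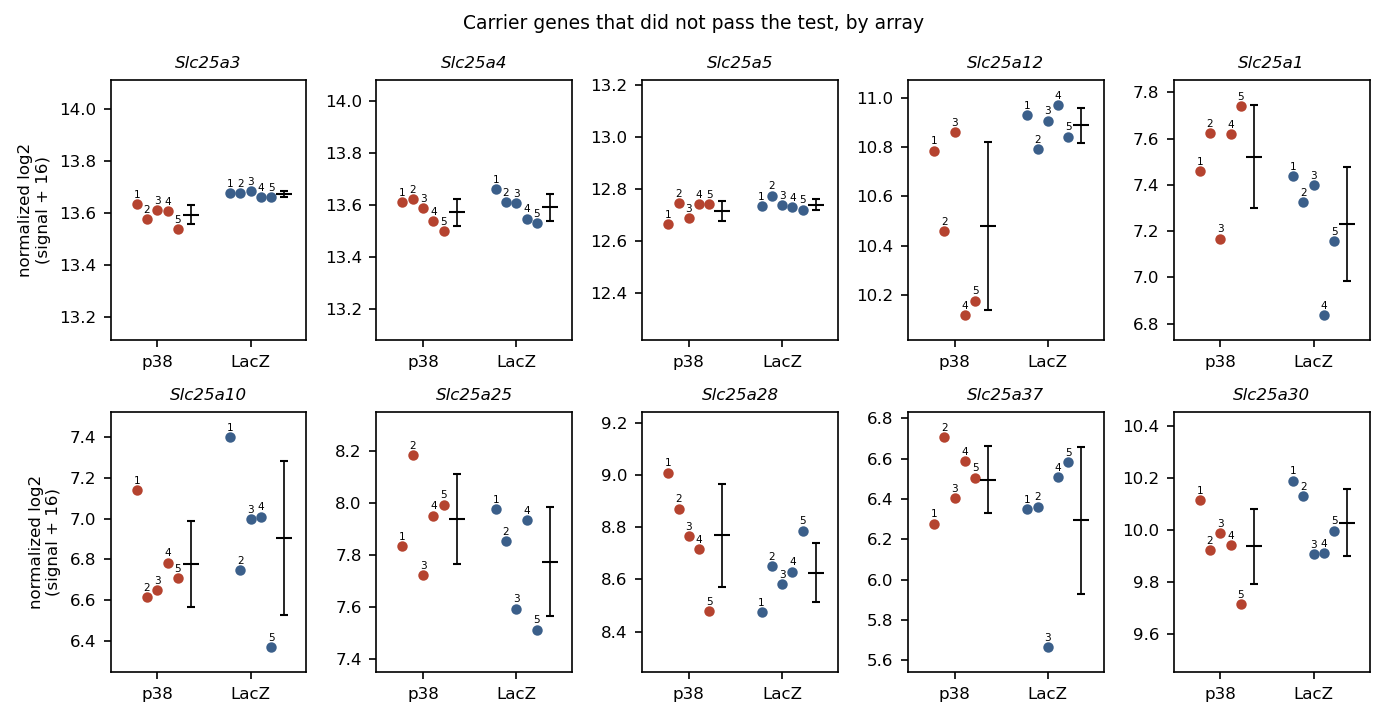
Normalized log2(signal + 16) on each array (y axis) for 10 carrier genes that did not pass the test, p38 arrays left and LacZ arrays right, with array numbers over the points and the mean ± SD (n = 5) beside them. The panels of Slc25a3, Slc25a4 and Slc25a5 span 1 log2 unit and show all 10 arrays close together, while 3 of the 5 p38 arrays of Slc25a12 lie clearly under the LacZ arrays.

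The ATP-Mg/phosphate carriers, most of them switched by calcium, set the size of the matrix adenine nucleotide pool, and here 1 fell and 1 rose. Slc25a23 measured 8.33, 7.88, 7.93, 7.14 and 7.68 in p38 1 to 5, against 8.38, 8.79, 8.47, 8.32 and 8.43 in LacZ 1 to 5. It averaged 7.79 ± 0.43 in p38 and 8.48 ± 0.18 in LacZ hearts, a log2 fold change of -0.69 ± 0.18 or 0.622 times the LacZ level (adjusted p = 0.0253), and 4 of the 5 p38 arrays lay below all LacZ arrays, with p38 1 just above the lowest of them. A dimmer probe set of Slc25a23 did not pass (-0.19 ± 0.15, adjusted p = 0.387), and the call was lost when all probe sets of the gene were averaged, at -0.31 (adjusted p = 0.0948). That average included a further probe set that was too dim to be tested, with a mean log2 signal of 4.42. Slc25a24 measured 9.06, 9.07, 8.64, 9.49 and 9.55 in p38 1 to 5, against 8.46, 8.55, 8.57, 8.66 and 8.78 in LacZ 1 to 5. It averaged 9.16 ± 0.37 in p38 and 8.60 ± 0.12 in LacZ hearts, a log2 fold change of 0.56 ± 0.15 or 1.47-fold (adjusted p = 0.0281), with p38 3 inside the LacZ range and the other p38 arrays above it. The third gene, Slc25a25, measured 7.83, 8.18, 7.72, 7.95 and 7.99 in p38 1 to 5, against 7.98, 7.85, 7.59, 7.93 and 7.51 in LacZ 1 to 5. Its groups overlapped (log2 fold change 0.16 ± 0.12, adjusted p = 0.367), and Slc25a41 was too dim to be tested.

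With 1 array left out, the fall of Slc25a23 stayed between -0.82 and -0.52 and lost its call without p38 5 (adjusted p = 0.0520), LacZ 2 (0.0629) or LacZ 3 (0.0583), and also on the deposited signals (0.0722). The rise of Slc25a24 stayed between 0.46 and 0.69 and lost its call without p38 2, p38 4, p38 5, LacZ 1, LacZ 2, LacZ 3 or LacZ 4 (adjusted p from 0.0504 to 0.0755). In p38 hearts 7 of 10 macrophage markers rose and none fell, where 11.6% of all tested genes rose. The summed signal of these markers was 11628 to 22266 in p38 and 9039 to 12805 in LacZ hearts, with no marker too dim to be tested. Whether the macrophage markers take part in the change of either carrier gene was not tested.

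The malate-aspartate shuttle needs one carrier for malate and ketoglutarate, Slc25a11, and one for aspartate and glutamate, for which heart expresses Slc25a12 (aralar) and Slc25a13 (citrin), both calcium-regulated. Slc25a11 measured 12.17, 12.03, 12.20, 11.78 and 11.84 in p38 1 to 5, against 12.41, 12.36, 12.32, 12.31 and 12.22 in LacZ 1 to 5. All p38 arrays lay below all LacZ arrays, as for Slc25a3, Slc25a13 and Slc25a22 and for 4.74% of all tested genes, and the estimate was -0.32 ± 0.08 on the log2 scale (adjusted p = 0.0255). Slc25a13 measured 11.09, 11.05, 11.07, 10.75 and 10.75 in p38 1 to 5, against 11.23, 11.23, 11.43, 11.29 and 11.22 in LacZ 1 to 5. The groups did not overlap at this probe set, and the estimate was -0.34 ± 0.09 (adjusted p = 0.0222). The dimmer probe set of Slc25a13 fell by 0.64 (SE 0.10, adjusted p = 0.00732), again with every p38 array below every LacZ array. Slc25a12 measured 10.79, 10.46, 10.86, 10.12 and 10.18 in p38 1 to 5, against 10.93, 10.79, 10.91, 10.97 and 10.84 in LacZ 1 to 5. Its log2 fold change of -0.41 ± 0.13 missed the threshold (adjusted p = 0.0529), the p38 arrays being widely spread and p38 3 lying among the LacZ arrays. Slc25a12 passed in 6 of 25 other settings, such as the fit blocked on fluidics status (adjusted p = 0.0120), its adjusted p ranging from 0.00908 to 0.303 over them.

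The enzymes that turn the same shuttle were measured too. Of 4 tested, the aspartate aminotransferases Got1 (cytosolic, -0.41 ± 0.07, adjusted p = 0.00911) and Got2 (mitochondrial, -0.26 ± 0.06, adjusted p = 0.0141) and the mitochondrial malate dehydrogenase Mdh2 (-0.23 ± 0.05, adjusted p = 0.0159) fell, while the cytosolic Mdh1 did not pass (-0.07 ± 0.05, adjusted p = 0.353). These 3 falls of 4 stood beside 6.23% of all tested genes. The 3 falls became none with the signals as deposited, where 0.245% of all tested genes fell. Without an intensity trend in the variance model they became 1, where 4.44% of all tested genes fell. With 1 array left out, the fall of Slc25a13 lost its call without p38 4 (adjusted p = 0.0582) or LacZ 3 (0.0627), and that of Slc25a11 without p38 4, p38 5, LacZ 1, LacZ 2 or LacZ 3 (adjusted p from 0.0549 to 0.0631). Both also lost it with the signals as deposited (adjusted p = 0.281 for Slc25a13 and 0.242 for Slc25a11), and Slc25a11 with median centring (0.0559) or without an intensity trend (0.0559).

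Cardiomyocyte markers were bright and all 8 were tested, which fits the tissue label, and 3 of them fell in p38 hearts: Actn2 (-0.26 ± 0.06), Ryr2 (-0.26 ± 0.07) and Mybpc3 (-0.22 ± 0.06), whereas Myh6, Myl2, Myl3, Tnnt2 and Tnni3 did not pass. Those that did not pass were the brightest of the list, with group means of 13.64 to 13.83, against 12.83 to 13.40 for those that fell. Compression of differences or saturation at this brightness was not tested. The summed signal of the 8 was 88854 to 94344 in p38 and 94525 to 96147 in LacZ hearts. Of 5 endothelial markers 2 fell, their summed signal being 4887 to 6033 in p38 and 6006 to 6508 in LacZ hearts. Of 4 tested T cell markers 1 rose. Beside these marker counts, 6.23% of all tested genes fell and 11.6% rose. No fibroblast (6 tested), atrial (3 tested), adipocyte or skeletal muscle marker (1 tested each) passed by limma, though 1 of the first, none of the second and 1 of each of the others had an unadjusted p under 0.05. The defining adipocyte genes Adipoq and Plin1 and skeletal muscle genes Myh2 and Myh4 were too dim to be tested. The 1 adipocyte marker tested was Fabp4 and the 1 skeletal muscle marker was Myh1. Which cells gave the signal of Fabp4 and Myh1 was not tested. Whether these differences take part in the carrier falls was not tested.

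**Figure D3:**
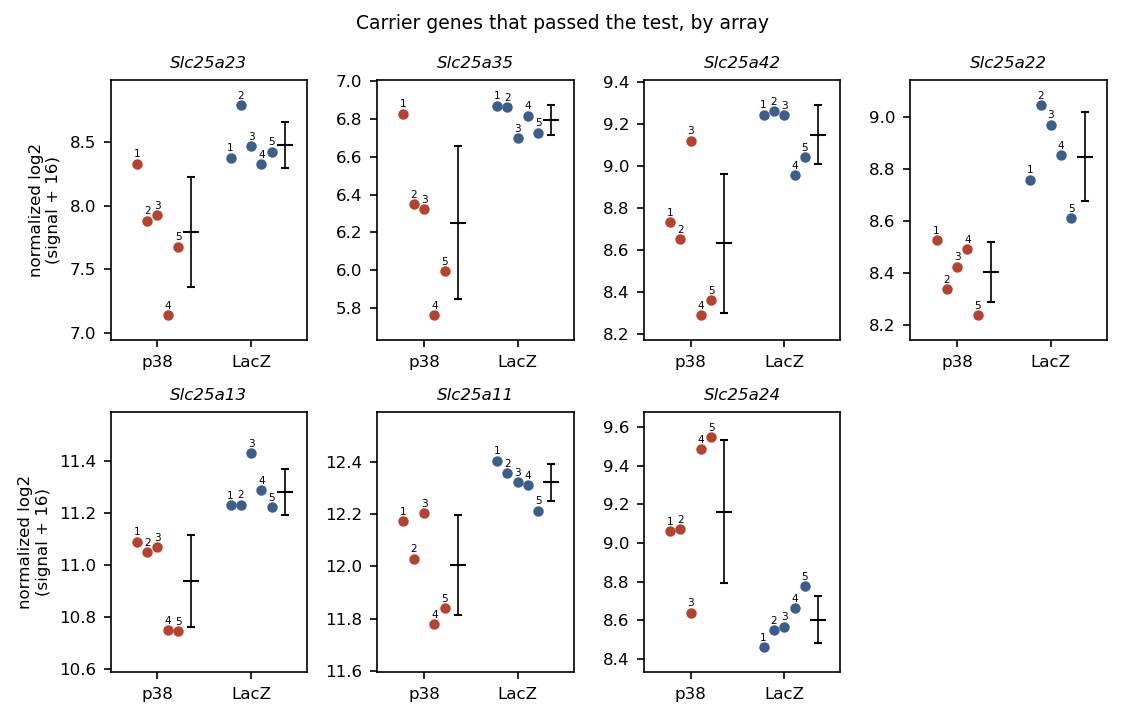
Normalized log2(signal + 16) on each array (y axis) for the 7 carrier genes that passed the test, p38 arrays left and LacZ arrays right, with array numbers over the points and the mean ± SD (n = 5) beside them. The groups do not overlap for Slc25a22, Slc25a13 and Slc25a11, and p38 4 or p38 5 is the lowest array for all 6 genes that fell and p38 5 the highest for Slc25a24.

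Among the other amino acid carriers, the glutamate importer Slc25a22 fell. It measured 8.53, 8.34, 8.43, 8.49 and 8.24 in p38 1 to 5, against 8.76, 9.05, 8.97, 8.85 and 8.61 in LacZ 1 to 5. Every p38 array lay below every LacZ array, at 8.40 ± 0.12 in p38 and 8.85 ± 0.17 in LacZ hearts, a log2 fold change of -0.44 ± 0.10 or 0.735 times the LacZ level (adjusted p = 0.0159). It passed in 24 of 25 other settings, without each single array included, and was lost with the signals as deposited (-0.27, adjusted p = 0.217). Slc25a29, a carrier of basic amino acids, ran from 7.93 to 8.83 with a median of 8.61 in p38, against 8.51 to 9.08 with a median of 8.77 in LacZ hearts. Its p38 4 and p38 5 arrays stood alone below the LacZ range, and the difference of -0.39 ± 0.18 did not pass (adjusted p = 0.155). The ornithine carrier Slc25a15 had 5 tested probe sets, none of which passed, with log2 fold changes from -0.43 to -0.14. The glycine carrier Slc25a38, which feeds haem synthesis, had -0.03 ± 0.12 (adjusted p = 0.870), and of all 6 tested amino acid carriers, Slc25a12 and Slc25a13 included, 2 fell and none rose.

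Slc25a42, which brings coenzyme A into the matrix, measured 8.73, 8.65, 9.12, 8.29 and 8.36 in p38 1 to 5, against 9.24, 9.26, 9.24, 8.96 and 9.04 in LacZ 1 to 5. Its p38 3 array lay within the LacZ range and the other 4 below it, at a log2 fold change of -0.52 ± 0.14 or 0.699 times the LacZ level (adjusted p = 0.0300). The call was lost without p38 2, p38 4, p38 5, LacZ 1, LacZ 2 or LacZ 3 (adjusted p from 0.0587 to 0.0782), when the fluidics module entered as a block (0.0532) and on the deposited signals (0.207). The other 5 coenzyme and nucleotide carriers did not pass. They comprised the peroxisomal carrier Slc25a17 (0.24 ± 0.14), the folate carrier Slc25a32 (0.01 ± 0.15), the pyrimidine nucleotide carriers Slc25a33 (-0.15 ± 0.14) and Slc25a36 (-0.18 ± 0.11), and Slc25a16 (-0.12 ± 0.10).

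Slc25a35, whose substrate in the heart is not settled, measured 6.83, 6.35, 6.32, 5.76 and 5.996 in p38 1 to 5, against 6.87, 6.86, 6.70, 6.82 and 6.73 in LacZ 1 to 5. The p38 1 array sat among the LacZ arrays and the other 4 below them, which gave -0.54 ± 0.17 on the log2 scale (adjusted p = 0.0483). This was the least stable call of the 7, passing in 7 of 24 other settings with an adjusted p from 0.00688 to 0.119, and with 1 array left out it passed only without p38 1. Its relative Slc25a34 (-0.29 ± 0.15), Slc25a46 of the outer membrane (-0.24 ± 0.12), Slc25a45 (0.04 ± 0.15) and Slc25a51l1 (-0.22 ± 0.10) did not pass.

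Carriers of citrate and other di- and tricarboxylates, apart from Slc25a11, did not pass. The citrate carrier Slc25a1, which exports citrate for lipid synthesis, measured 7.46, 7.62, 7.17, 7.62 and 7.74 in p38 1 to 5, against 7.44, 7.33, 7.40, 6.84 and 7.16 in LacZ 1 to 5. Although only p38 3 was not above every LacZ array, the log2 fold change of 0.29 ± 0.14 did not pass (adjusted p = 0.167). The dicarboxylate carrier Slc25a10 measured 7.14, 6.61, 6.65, 6.78 and 6.71 in p38 1 to 5, against 7.40, 6.75, 6.997, 7.01 and 6.37 in LacZ 1 to 5. Its arrays overlapped widely (-0.13 ± 0.18, adjusted p = 0.649), as did those of the oxodicarboxylate carrier Slc25a21, with the widest interval in the family (-0.56 to 0.82).

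The mitoferrins, which deliver iron for haem and iron-sulfur clusters, did not pass either. Slc25a28 measured 9.01, 8.87, 8.77, 8.72 and 8.48 in p38 1 to 5, against 8.48, 8.65, 8.58, 8.63 and 8.79 in LacZ 1 to 5. Slc25a37, the erythroid form, measured 6.28, 6.71, 6.40, 6.59 and 6.51 in p38 1 to 5, against 6.35, 6.36, 5.67, 6.51 and 6.58 in LacZ 1 to 5. Both sets of arrays overlapped, and the estimates were 0.14 ± 0.11 (adjusted p = 0.359) and 0.20 ± 0.17 (adjusted p = 0.433). Of 10 tested genes of haem and iron-sulfur synthesis none passed by limma (3 at an unadjusted p under 0.05, and 3 passed with fluidics status as a block or without p38 1), Alas2 coming nearest (-0.78 ± 0.25, adjusted p = 0.0532). Of 3 tested red cell markers 2 fell, Slc4a1 and Hbb, where 6.23% of all tested genes fell. The summed signal of the red cell list was 3929 to 6577 in p38 and 6650 to 11679 in LacZ hearts. The part of these markers in the values of Slc25a37 was not tested. The glutathione carrier Slc25a39 had -0.10 ± 0.06 (adjusted p = 0.279).

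Slc25a14 and Slc25a30 are relatives of the uncoupling proteins. Slc25a30 measured 10.11, 9.92, 9.99, 9.94 and 9.72 in p38 1 to 5, against 10.19, 10.13, 9.91, 9.91 and 9.997 in LacZ 1 to 5. At this brightest probe set the groups overlapped (-0.09 ± 0.09, adjusted p = 0.514). A dimmer probe set of Slc25a30 fell by 0.56 (SE 0.10, adjusted p = 0.00802), with all p38 arrays below all LacZ arrays, and with the probe sets averaged the gene passed (-0.32, adjusted p = 0.0303). The probe sets of Slc25a30 thus gave different calls, and which one follows the whole transcript was not tested. Slc25a14 did not pass (-0.04 ± 0.15, adjusted p = 0.877).

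Arrays of the p38 group were unequal. The median deviation of the 32 carrier genes from the LacZ mean was 0.0017, -0.09, -0.03, -0.20 and -0.25 in p38 1 to 5, against 0.05, 0.03, -0.02, 0.01 and -0.05 in LacZ 1 to 5. The p38 4 and p38 5 arrays were thus the lowest and p38 1 and p38 3 lay among the LacZ arrays. Over all tested genes the same median was 0.04, 0.01, 0.04, -0.02 and -0.03 in p38 1 to 5 and -0.02 to 0.02 in LacZ arrays. The mean deviation of the macrophage list was 0.12, 0.78, 0.59, 1.13 and 1.19 in p38 1 to 5, against -0.15 to -0.0012 in LacZ 1 to 4 and 0.38 in LacZ 5. The arrays with the lowest carrier medians, p38 4 and p38 5, had the highest macrophage values. Whether the carrier and macrophage values are linked was not tested.

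**Figure D4:**
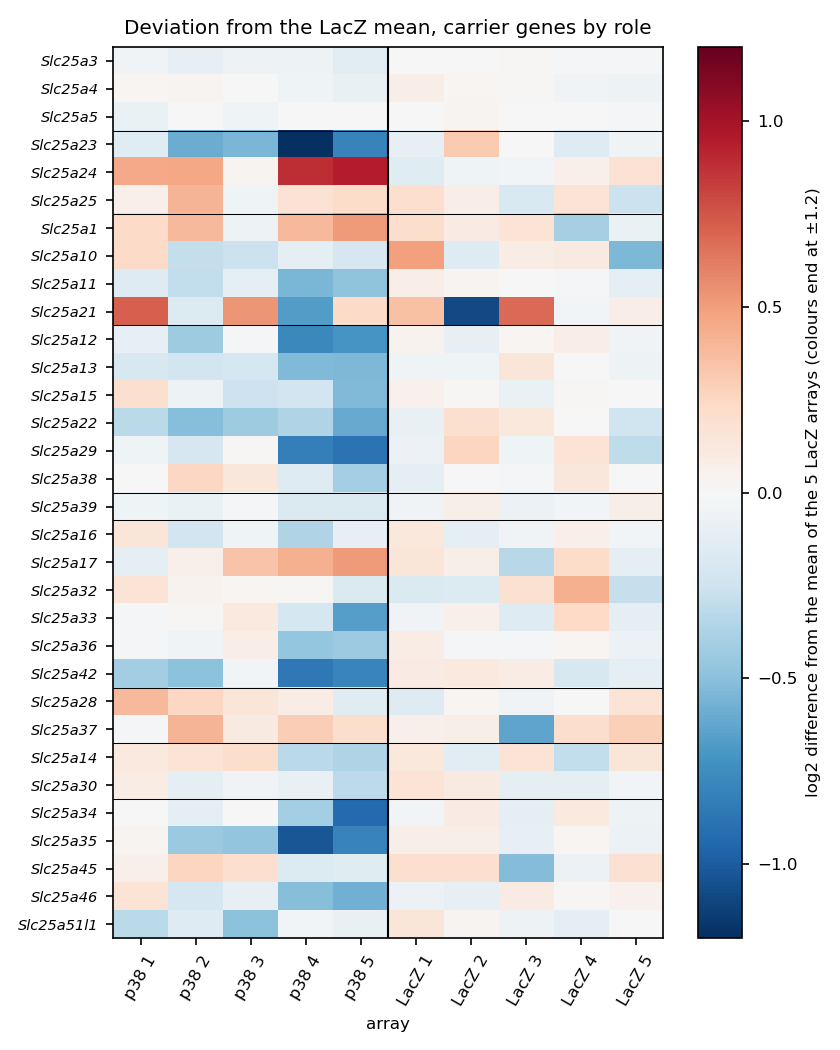
Difference of each array from the mean of the 5 LacZ arrays in log2 units (colour) for the 32 tested carrier genes (rows, by role) and the 10 arrays (columns, p38 left). Columns p38 4 and p38 5 have the lowest medians. The deepest single cells are Slc25a23 in p38 4 (-1.34) and Slc25a21 in LacZ 2 (-1.08), and the rows of Slc25a3, Slc25a4 and Slc25a5 stay near 0.

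The p38 4 and p38 5 arrays shared the fluidics status Completed with LacZ 1 to 4, while p38 1 to 3 and LacZ 5 had the status Started in the experiment files. Within Completed arrays 13 of 32 carrier genes fell and 2 rose, where 20.5% of all tested genes fell and 20.7% rose, and the median was -0.26. The only p38 arrays there were p38 4 and p38 5, those with the lowest carrier medians. The split was chosen after the data were seen. Within Started arrays none of 33 passed by limma in either direction, nor did any have an unadjusted p under 0.05, where 0.00941% of all tested genes fell, and the median was -0.01. That last comparison has LacZ 5 as its single LacZ array, which is assumed to vary like the p38 arrays, so its lack of calls says little about the carrier genes. With status as a block 8 fell and 1 rose, the added falls being Slc25a12 and Slc25a46. Over all tested genes 10.3% fell and 13.5% rose in that fit. The differences of Slc25a23 were -1.08 within Completed and -0.38 within Started arrays, those of Slc25a11 -0.54 and -0.08, and those of Slc25a24 0.95 and 0.15. The fluidics modules held 1 or 2 arrays per group each. Among the 7 genes that passed, p38 minus LacZ within a module had the opposite sign to the whole comparison for Slc25a42 (0.16) and Slc25a24 (-0.02), both in module 4. The genes were called on these same arrays, so the signs within batches are no independent support.

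Transport proteins outside the symbol rule were read in the same fit, in which 6.23% of all tested genes fell and 11.6% rose. Of 14 tested, 4 fell, namely the uncoupling proteins Ucp2 (-0.40 ± 0.12, adjusted p = 0.0393) and Ucp3 (-0.91 ± 0.23, adjusted p = 0.0227), which belong to the same protein family, the voltage-dependent anion channel Vdac1 of the outer membrane (-0.25 ± 0.06, adjusted p = 0.0201) and the cation exchanger Letm1 (-0.44 ± 0.08, adjusted p = 0.00818). The sideroflexins Sfxn1, a serine transporter (0.70 ± 0.17, adjusted p = 0.0191), and Sfxn3 (0.35 ± 0.10, adjusted p = 0.0272) rose. The 4 falls became 2 without p38 4, LacZ 1 or LacZ 3, 1 without LacZ 2, 2 with median centring, without an intensity trend or blocked on module, and none on the deposited signals. The share of all tested genes that fell was also lower there, at 2.31%, 2.95%, 2.34%, 3.04%, 3.06%, 4.44%, 4.54% and 0.245% in the same order. The 2 rises became none without p38 4 and 1 without p38 2, p38 5, LacZ 1, LacZ 2 or LacZ 4, with the module block and for the signals as deposited. The share of all tested genes that rose was then 5% without p38 4 and 6.24% to 8.99% in the others. The mitochondrial pyruvate carrier genes Mpc1 (-0.17 ± 0.06, adjusted p = 0.0755) and Mpc2 did not pass. None of 13 tested genes of the machinery that imports carrier proteins passed by limma (1 at an unadjusted p under 0.05), Tomm70, the receptor for carrier precursors, having -0.22 ± 0.10 (adjusted p = 0.144).

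Larger mitochondrial gene groups stood beside the carriers. Of 77 oxidative phosphorylation subunits 4 fell and 1 rose (5.195% lower, median -0.12), where 6.23% of all tested genes fell and 11.6% rose. By limma 30 of the 77 had an unadjusted p under 0.05 and a negative value. The matching share of all tested genes was not counted. Of 73 mitochondrial ribosomal proteins 1 fell and 1 rose (1.37% lower, median -0.08), and the number that fell was 0 to 7 over the settings, being 7 without p38 1 and 2 without p38 3. The medians of both lists lay close to the -0.11 of the carrier genes. Whether the shares differ between the groups was not tested. The count of subunits that fell was 20 with array weights, 20 with fluidics status as a block, 21 without p38 1, 12 without p38 3, 7 without LacZ 5, 2 without LacZ 1 and none on the deposited signals. The share of all tested genes that fell moved as well, to 12.6%, 10.3%, 10.7%, 9.64%, 5.05%, 2.95% and 0.245% in the same order. The count of carrier genes that fell was 7 with array weights and 8 with fluidics status as a block or without p38 1.

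**Figure D5:**
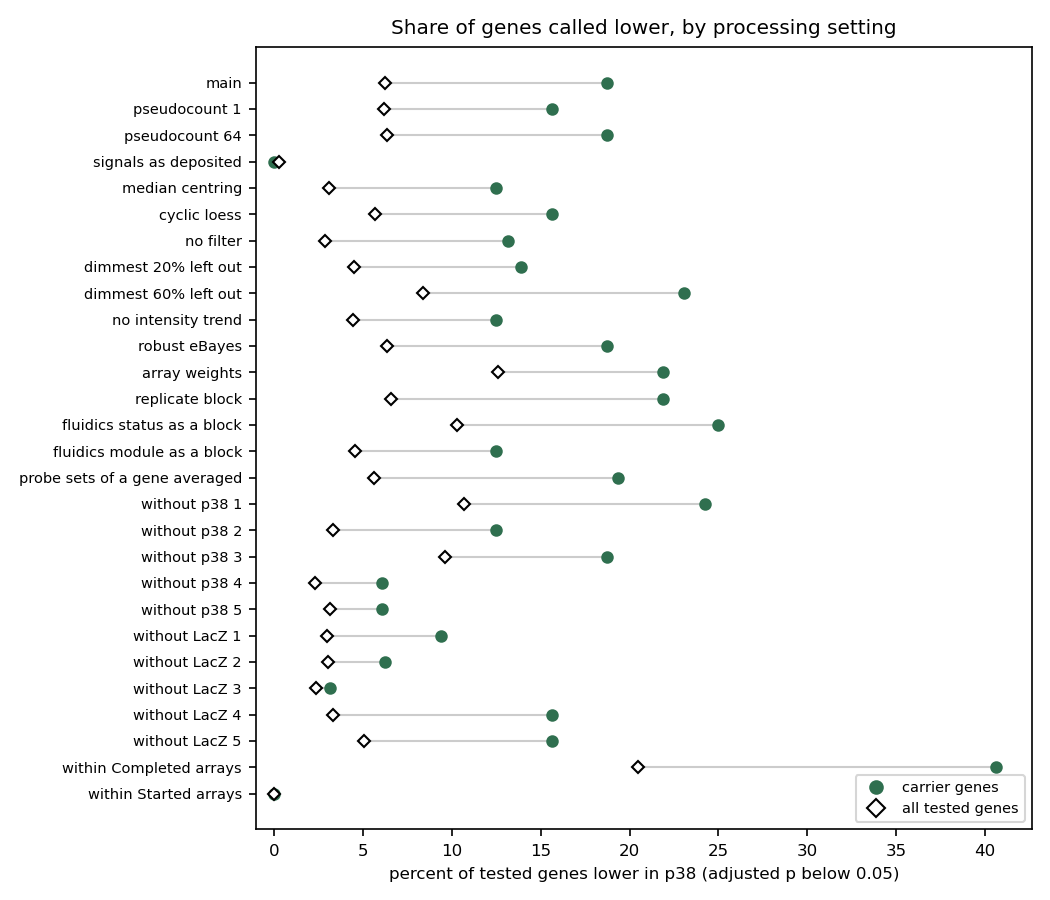
Percent of tested genes called lower in p38 (x axis) under each processing setting (rows), for the carrier genes (filled circles) and for all tested genes (open diamonds). In the setting used for the report these are 18.75% and 6.23%, and both shares are near 0 with the signals as deposited. The point within Started arrays rests on 1 LacZ array, and that within Completed arrays on p38 4 and p38 5 as the only p38 arrays.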

How the data were processed

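Left ventricular RNA of 5 p38 and 5 LacZ samples was measured on 1-colour Affymetrix rat arrays. The deposited value of a probe set is a summarised signal intensity on a linear scale that the authors made with GCOS 1.2, per the submitters' processing notes for 9 of the 10 samples. Array medians ran from 60.5 to 88.5 and trimmed means differed by up to 1.48-fold, so arrays do not share a common scale, and the number of arrays limits the precision. Control probe sets were left out, log2(signal + 16) was computed from the deposited intensities, arrays were quantile-normalized, and the dimmest 40% of 31042 probe sets were not tested. limma 3.58.1 (R 4.3.3) was fitted with lmFit and eBayes with an intensity trend, p38 minus LacZ, and p-values were adjusted by the Benjamini-Hochberg method over 18625 probe sets. Gene names came from the platform annotation, and all 38 carrier genes matched RefSeq by Entrez identifier. Array values are given for genes with an adjusted p under 0.05 and for 12 carriers named in the design whatever their p. The members, lists and alternatives were chosen with earlier results of these data known. Fluidics status and module, read from the deposited experiment files, served as batches, and a further setting was each status on its own, chosen after the data were seen. In simulated data with 200 of 18625 probe sets changed, 40.9% of log2 changes of 0.5, 88.4% of 1 and 99.7% of 2 were recovered. Promoter sequences were from RefSeq (GRCr8). Protein sequences were not used here.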

Additional observations from a re-analysis of the deposited data

Results flagged for a closer look

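Slc25a37, a mitoferrin, had a normalized log2(signal + 16) of 5.67 on the LacZ 3 array, while the other 4 LacZ arrays measured 6.35 to 6.58 and the p38 arrays 6.28 to 6.71. The gap to the nearest array was large for a group of 5 by Dixon's criterion. It was 1 of 64 groups examined (32 genes in each group of arrays), and chance flags about 1 in 20.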

How the results depend on the processing

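In the report 6 carrier genes fell, 1 rose and the median log2 fold change was -0.11. With the signals as deposited the falls were 0 and the median turned to 0.015. The median of all tested genes was then 0.15, and 0.245% of them fell. Within Completed arrays, where p38 4 and p38 5 are the only p38 arrays, 13 fell and 2 rose with a median of -0.26. Of all tested genes 20.5% fell and 20.7% rose there. Within Started arrays, where LacZ 5 stands alone, the median was -0.013. With 1 array left out the falls ranged from 1 to 8, the rises from 0 to 1 and the median from -0.18 to -0.08. The share of all tested genes that fell then ranged from 2.31% (without p38 4) to 10.7% (without p38 1). The cause of these shifts was not tested. Under the other settings (pseudocount, median centring, cyclic loess, filter, variance model, array weights, blocks and averaged probe sets) 4 to 8 fell, 1 rose and the median was -0.15 to -0.10. Over all tested genes 2.87% (no filter) to 12.6% (array weights) fell in those settings, and 6.28% to 18.2% rose. The labels state no pairing by replicate number. Deviations of same-numbered arrays correlated at 0.08, 0.10, 0.04, -0.13 and 0.28. Only p38 2 and p38 5 correlated best with the LacZ array of their own number. Such correlations cannot show how the samples were collected. With the replicate number as a block 7 fell and 1 rose, the added fall being Slc25a12. Over all tested genes 6.57% fell and 11.9% rose in that fit. The typical tested gene had a 95% interval of ± 0.25, against 0.079 to 0.69 for the carriers, and a value that did not pass is limited by its own interval.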
